A study of Homo sapiens with 267 samples.

Results

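The lineage genes, 10 rows of a count table of 63677 genes, were followed across libraries of K562 cells to see which non-erythroid blood genes this line expresses. The rows were chosen by gene symbol, with earlier results of these data known. They comprise the megakaryocyte and platelet genes ITGA2B, ITGB3, GP9 and PF4, the transcription factor genes FLI1, RUNX1, SPI1 and CEBPA, and the progenitor surface genes KIT and CD34. K562 is an established human line from a chronic myeloid leukaemia in blast crisis. It carries the BCR-ABL fusion kinase and is known for fetal and embryonic haemoglobin expression.

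Cells were captured on a C1 microfluidic chip and their RNA was sequenced in 3 runs. The Hoechst run has 96 library titles, with cells stained with 2 µM Hoechst and 3.75 µM propidium iodide for 20 min and no drug, and a label passage of 90 to 92. The benzene run and the imatinib run used CellTracker dyes at 1 µM for 30 min and a label passage of 20 to 22, the unit of passage being written as hours in all runs. In the benzene run, CellTracker Green marked untreated cells and CellTracker Orange marked cells given 10 mM benzene for 3 h. In the imatinib run, Green again marked untreated cells and Orange marked cells given 1 µM imatinib, an ABL kinase inhibitor, for 1 h. Dye and drug therefore cannot be told apart within a run. The Hoechst run came from another lot of K562 cells and was read at another length on another sequencer. By the paper, cells stained as dead were sequenced in that experiment but excluded from sequencing in the CellTracker experiments. Lot, passage, dye, sequencing and the handling of dead cells therefore cannot be told apart between runs. By the study's methods each experiment held both fresh cells and cells fixed with DSP, a crosslinker, and bulk samples were sequenced together with the single cells. Fixed cells were stored for longer before capture in the Hoechst experiment than in the CellTracker experiments, so storage time also differs with the run. The labels separate neither fresh from fixed cells nor single cells from bulk samples and empty capture sites, so fixation cannot be told apart from dye and drug either. Each run and stain was counted as 1 culture, so its libraries are not replicates of a treatment.

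Of 267 titles, 263 had a column of counts, and 242 were kept because at most 70% of their reads fell in their top 500 genes. The kept libraries were 82 of the Hoechst run, 65 of the benzene run (31 Green and 34 Orange) and 95 of the imatinib run (50 Green and 45 Orange). Their depth was 50358 to 2043351 reads on genes in the Hoechst run, 1040093 to 1721559 in the benzene run and 722407 to 1788166 in the imatinib run, and the median number of genes with more than 2 reads was 7410.5, 5905 and 8022. Mitochondrial genes took a median of 12.5%, 6.48% and 6.68% of the reads. The erythroid identity of the line was seen in all runs. HBG2, a fetal globin gene, was detected in 98.8%, 100% and 100% of the kept libraries, and 11, 11 and 12 of 14 erythroid genes were detected in at least 50% of them. Detection means more than 2 reads throughout, and levels are CPM, reads per 1000000 reads on genes. Intervals are exact 95% intervals, and the limit given with a count of 0 is instead 3 counts of the total. Both cover counting error only, since reads carry no molecular identifiers.

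Megakaryocytes and erythroid cells arise from a shared progenitor, in which GATA1, GATA2, TAL1 and RUNX1 act together. RUNX1 and FLI1 favour the megakaryocyte branch, whose maturing cells make the αIIbβ3 fibrinogen receptor from ITGA2B and ITGB3, the GPIb-IX-V receptor that includes GP9, and the platelet chemokine PF4. SPI1 (PU.1) and CEBPA drive the myeloid branch, and SPI1 and GATA1 are known to oppose each other. KIT, the stem cell factor receptor, and CD34 mark stem and progenitor cells.

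The upstream sequences of ITGA2B, RUNX1 and GP9 are shown because the first pair was read in every run while GP9, a platelet receptor gene like ITGA2B, had no read. Each is the 250 bases before 1 RefSeq start of the gene, 5′ to 3′ on the gene's strand, with coordinates on GRCh38.p14. Any other start of a gene was not searched. They lie at chr17:44389650-44389899 on the minus strand, chr21:34888700-34888949 on the minus strand and chr3:129060529-129060778 on the plus strand. Capitals mark matches to motifs bound by GATA factors (AGATAA or AGATAG or TGATAA or TGATAG), ETS factors such as FLI1 and SPI1 (AGGAAG or CGGAAG) and RUNX factors (TGTGGT or TGCGGT), on both strands.
ITGA2B: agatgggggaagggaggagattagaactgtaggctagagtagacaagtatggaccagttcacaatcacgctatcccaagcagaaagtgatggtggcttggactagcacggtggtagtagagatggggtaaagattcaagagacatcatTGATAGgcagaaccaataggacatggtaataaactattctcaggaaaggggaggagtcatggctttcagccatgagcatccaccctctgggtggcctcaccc
RUNX1: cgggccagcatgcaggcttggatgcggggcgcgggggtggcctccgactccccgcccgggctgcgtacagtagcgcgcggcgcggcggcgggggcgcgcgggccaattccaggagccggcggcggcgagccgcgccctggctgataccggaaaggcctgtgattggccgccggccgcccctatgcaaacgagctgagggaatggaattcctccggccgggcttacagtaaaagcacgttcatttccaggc
GP9: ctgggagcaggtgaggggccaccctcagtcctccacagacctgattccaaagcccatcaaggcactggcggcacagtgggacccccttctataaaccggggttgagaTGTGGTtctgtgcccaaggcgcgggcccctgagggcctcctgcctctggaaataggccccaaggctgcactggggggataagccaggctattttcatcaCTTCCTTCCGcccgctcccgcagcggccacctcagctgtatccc
ITGA2B held 1 GATA match that began 102 bases before the start. GP9 held 1 RUNX match at 143 bases and 2 ETS matches at 44 and 40 bases, which overlap each other. RUNX1, CEBPA, KIT and CD34 held none of these letters in the same window. Of 27305 RefSeq windows of this length, 22.9% held a GATA match, 41% an ETS match and 16.1% a RUNX match, so the matches are a description of the sequences and not of binding. Sequences were matched for 6 of the 10 genes, and ITGB3, PF4, FLI1 and SPI1 had no entry.

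The 10 genes fell into 3 sets by detection. RUNX1 was read in most libraries, ITGA2B, SPI1 and KIT in some, and the remaining 6 in almost none. RUNX1 alone of the 10 was detected in 50% or more of the kept libraries, in each of the runs. Over the whole table, 11.3% of genes reached that share in the Hoechst run, 8.46% in the benzene run and 11.9% in the imatinib run, against 1 of 10 here in every run. The 63677 rows of the table include non-coding genes, such as antisense genes, while the 10 genes code for proteins. Shares over coding genes alone were not counted, so these shares are not a matched reference. All 10 identifiers are in the count table, and no filter on low values was applied to this count.

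**Figure D1:**
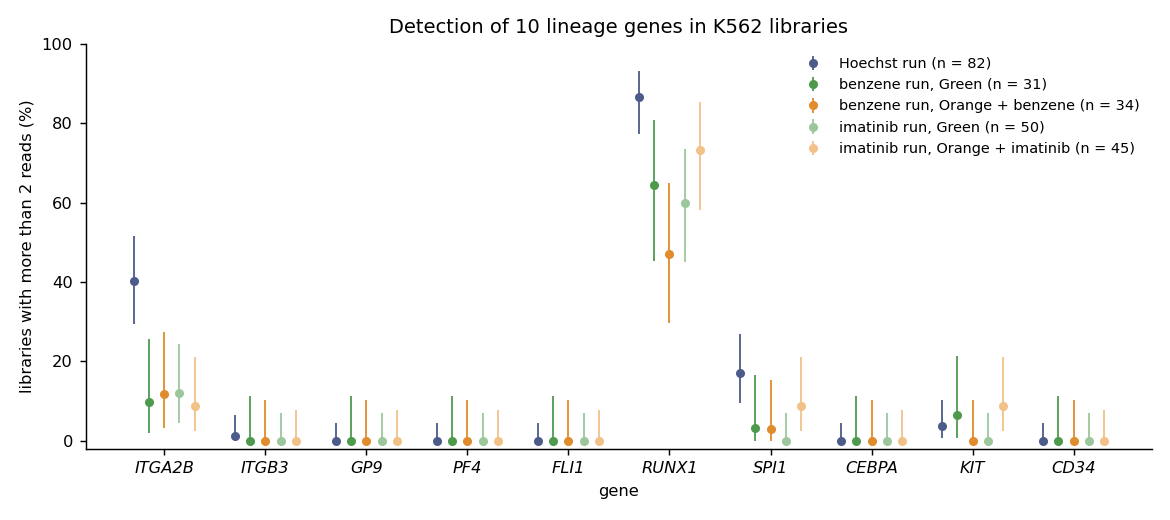
Percentage of kept libraries with more than 2 reads of each of the 10 genes (x axis) in each run and stain, with exact 95% intervals for the number of libraries. RUNX1 lies between 47.1% and 86.6%, ITGA2B is at 40.2% in the Hoechst run and at most 12% elsewhere, and GP9, PF4, FLI1, CEBPA and CD34 lie at 0 in all groups.

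RUNX1 encodes the DNA-binding subunit of core binding factor and is needed for megakaryocyte maturation and for definitive haematopoiesis (ENSG00000159216, minus strand of chromosome 21, 36160098 to 37376965 on GRCh37). In the Hoechst run it was detected in 71 of 82 libraries (86.6%, interval 77.3 to 93.1), with a lowest level of 0, a median of 22.3 and a highest of 496 CPM. That highest value rests on 25 reads, since the library has the lowest depth of all, 50358 reads. Green libraries of the benzene run had it in 20 of 31 cases (64.5%, interval 45.4 to 80.8), with a median of 4.95 and a highest level of 167 CPM. Orange libraries of that run had it in 16 of 34 cases (47.1%, interval 29.8 to 64.9), with a median of 1.32 and a highest level of 823 CPM. The Green and Orange ranges overlap almost entirely, both starting at 0.

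Among Green libraries of the imatinib run RUNX1 was detected in 30 of 50 (60%, interval 45.2 to 73.6), with a median of 5.12 and a highest level of 153 CPM. The Orange libraries had it in 33 of 45 (73.3%, interval 58.1 to 85.4), with a median of 7.40 and a highest level of 176 CPM. By median the order was Hoechst run, imatinib Orange, imatinib Green, benzene Green and benzene Orange. The spread within a group was wide, with an SD of log2(CPM + 1) of 2.13 over the Hoechst libraries and 2.18 to 2.72 in the other groups. The difference between the group means of log2(CPM + 1) of the Hoechst run and the Green libraries was 1.48 for the benzene run and 1.55 for the imatinib run, both smaller than these SDs. No pair of groups in this order differed by more than the spread over libraries, and no test between runs was made.

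Thinning every library to 500000 reads put the RUNX1 share at 82.5%, 49.2% and 51.6% in the Hoechst, benzene and imatinib runs, with 2 shallower Hoechst libraries left out. At full depth the shares of the runs were 86.6%, 55.4% and 66.3%. The share in the Hoechst run stayed the highest at either depth, and the benzene run moved below 50%.

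ITGA2B encodes the αIIb integrin chain, known as CD41, an early marker of the megakaryocyte lineage (ENSG00000005961, minus strand of chromosome 17, 42449548 to 42467017 on GRCh37). It was detected in 33 of 82 libraries of the Hoechst run (40.2%, interval 29.6 to 51.7), 7 of 65 of the benzene run (10.8%, interval 4.44 to 20.9) and 10 of 95 of the imatinib run (10.5%, interval 5.16 to 18.5). In the Hoechst run its level had a lowest value of 0, a median of 0.815 and a highest value of 776 CPM. The pooled level was set by a few libraries. Of the 82 libraries 10 reached 100 CPM, and the 5 libraries with the most reads held 70.4% of all ITGA2B reads of the run. In the other runs the median was 0 in each stain.

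In the benzene run ITGA2B was detected in 3 of 31 Green and 4 of 34 Orange libraries, with highest levels of 164 and 305 CPM. The imatinib run had it in 6 of 50 Green and 4 of 45 Orange libraries, with highest levels of 37.1 and 51.1 CPM. Where it was detected, its median level was 31.2 CPM in the Hoechst run, 23.4 CPM in the benzene run and 6.27 CPM in the imatinib run. Thinned to 500000 reads, the shares were 35%, 6.15% and 4.21%, so the Hoechst run stayed above the others at equal depth. Within the Hoechst run, libraries with and without ITGA2B had a median of 7448 and 7399 detected genes and of 1278260 and 1287270 reads.

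**Figure D2:**
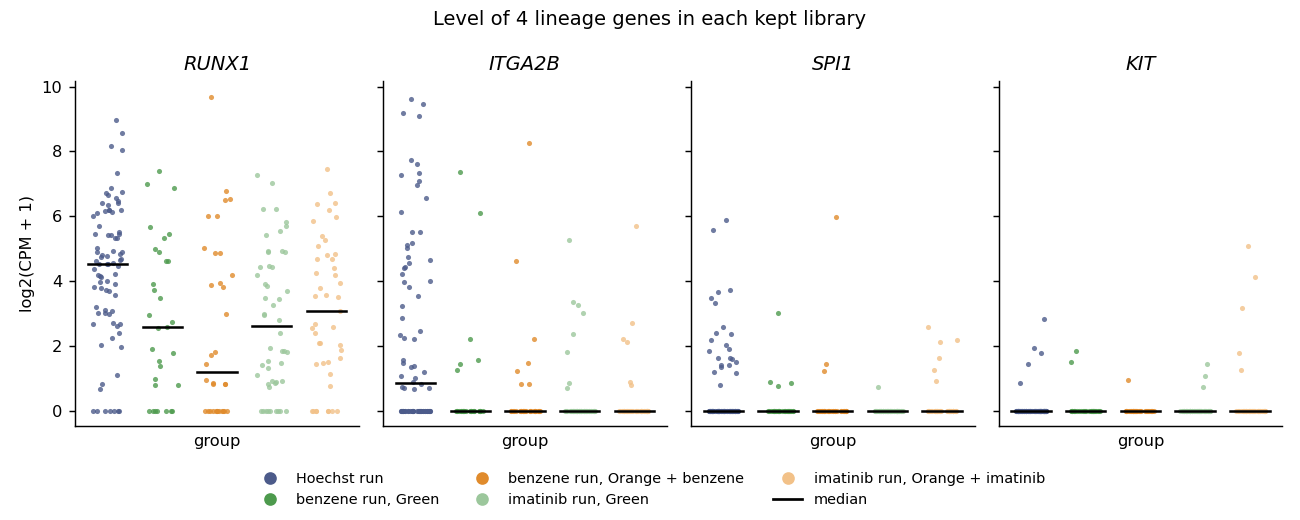
Level of RUNX1, ITGA2B, SPI1 and KIT in each kept library as log2(CPM + 1) (y axis), by run and stain, with the median as a line. Points at 0 are libraries without a read, the RUNX1 medians lie between 1.32 and 22.3 CPM, and ITGA2B has a median above 0 in the Hoechst run alone among the 5 groups.

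Libraries with more than 10000 detected genes were looked at separately, a limit set after the plot of ITGA2B against genes was seen. There were 5 of these in the Hoechst run, 3 in the benzene run and 4 in the imatinib run. All 5 Hoechst libraries had ITGA2B, at 6.28 to 31.2 CPM with a median of 20.2 CPM. The 3 libraries of the benzene run held it at 1.32 to 1.74 CPM, and the 4 of the imatinib run at 0 to 5.48 CPM. The lowest Hoechst value rests on 9 reads and the highest imatinib value on 8 reads, so these ranges nearly meet. How many other genes differ in this way was not counted. RUNX1 was detected in all 12 of them, at 5.58 to 29.3 CPM in the Hoechst run, 6.97 to 30.9 CPM in the benzene run and 2.80 to 28.5 CPM in the imatinib run, ranges that overlap. The labels do not say whether these libraries are the bulk samples, which would hold the RNA of many cells. They are part of the detection shares above. Without them the shares of the Hoechst, benzene and imatinib runs were 36.4%, 9.68% and 7.69% for ITGA2B and 85.7%, 53.2% and 64.8% for RUNX1.

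**Figure D3:**
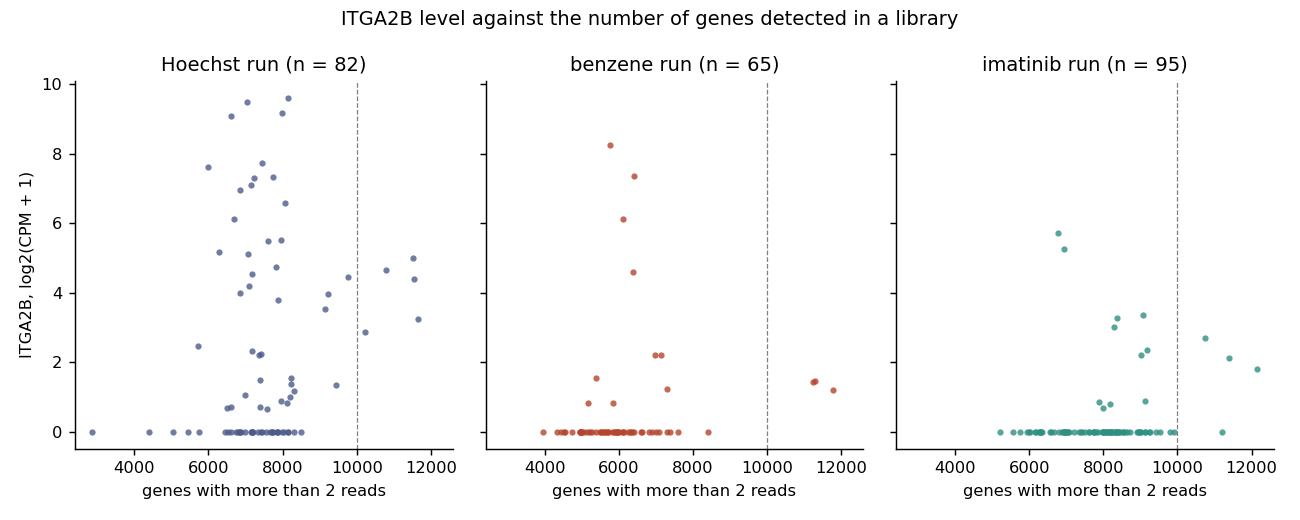
ITGA2B level as log2(CPM + 1) (y axis) against the number of genes with more than 2 reads (x axis) for each kept library, 1 panel per run, with a dashed line at 10000 genes. The highest levels lie at about the run's usual number of genes, and right of the line the Hoechst run holds 5 libraries at 6.28 to 31.2 CPM.

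ITGB3, which encodes the β3 chain that pairs with αIIb (ENSG00000259207, plus strand of chromosome 17, 45331193 to 45391109), did not follow ITGA2B. It had 29 reads in all kept libraries, of which 27 came from 1 Hoechst library, number 49, at 15.6 CPM. The benzene and imatinib runs had 1 read each. Another counted gene on the same strand, ENSG00000259753, overlaps 33.2% of its exon bases, so reads there may not have been assigned to ITGB3.

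GP9 and PF4 had 0 reads in all 263 libraries with counts. In the kept libraries, 0 of 82, 0 of 65 and 0 of 95 libraries allow a share of up to 3.66%, 4.62% and 3.16%, and 0 reads allow a pooled level of up to 0.0288, 0.0340 and 0.0251 CPM in the Hoechst, benzene and imatinib runs. CD34 and CEBPA also had 0 reads in all 263 libraries, with the same limits. For CEBPA, the founding factor of the granulocyte branch, antisense genes overlap 43.9% of the exon bases. FLI1, an ETS factor that favours megakaryocyte over erythroid fate, had 2 reads in all, 1 in each of 2 Hoechst libraries. GP9 lies on chromosome 3 at 128779622 to 128781249, PF4 on chromosome 4 at 74846528 to 74847744, FLI1 on chromosome 11 at 128556430 to 128683162, CEBPA on chromosome 19 at 33790840 to 33793440 and CD34 on chromosome 1 at 208054317 to 208084747, all on GRCh37.

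SPI1 encodes PU.1, the ETS factor of the myeloid and B lymphoid branches (ENSG00000066336, chromosome 11, 47376411 to 47400098). It was detected in 14 of 82 libraries of the Hoechst run (17.1%, interval 9.66 to 27), with a median of 0 and a highest level of 58 CPM. The benzene run had it in 1 Green and 1 Orange library, at 7.13 and 61.7 CPM. It was detected in 0 of 50 Green libraries of the imatinib run, which allows a share of up to 6.0% by 3 counts (exact interval 0 to 7.11), and in 4 of 45 Orange libraries (8.89%, interval 2.48 to 21.2), the highest at 5.0 CPM. The exact intervals of the Green and Orange shares of the imatinib run overlap, while the Hoechst interval lies above the imatinib Green interval. Thinned to 500000 reads, SPI1 was detected in 7.50%, 3.08% and 1.05% of the libraries of the 3 runs. At that depth the Hoechst and imatinib Green intervals, 2.80 to 15.6 and 0 to 7.11, overlapped.

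KIT (ENSG00000157404, chromosome 4, 55523434 to 55606949) was detected in 3 of 82, 2 of 65 and 4 of 95 libraries. Its highest level in the Hoechst run was 6.18 CPM and in the benzene run 2.58 CPM. The 4 libraries of the imatinib run were all Orange, and 74 of the 79 reads were Orange. Of these, 38 came from Orange library 48, at 32.8 CPM, and 23 from Orange library 30, at 16.5 CPM. The Green libraries had 5 reads in 3 libraries, none with more than 2. Of CD34 and KIT, both used to define progenitors, only KIT was thus read in these libraries.

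Per length, the order of the genes changed between runs. Levels per kilobase of exon were 9.50 CPM for ITGA2B, 2.89 for RUNX1, 1.13 for SPI1 and 0.0161 for KIT in the Hoechst run. For the benzene run RUNX1 came first with 2.24, before ITGA2B with 1.43, SPI1 with 0.516 and KIT with 0.00700. The same order held in the imatinib run with 1.35, 0.258, 0.0942 and 0.0583. The lengths are unions of all annotated exons, which for RUNX1 span 15574 bases, and ITGA2B came first in the Hoechst run on the strength of its highest libraries, since its median per library was below that of RUNX1.

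The comparison of Orange with Green libraries asks whether the lineage genes moved with the benzene or imatinib label. Pooled over libraries, no gene of the 10 with at least 100 reads differed 2-fold in either run. In the benzene run 2 of the 10 had enough reads, and over all genes 21% of 13385 were at least 2-fold higher and 18.4% at least 2-fold lower. For the imatinib run the number was also 2 of 10, and 10.4% of 14418 genes were at least 2-fold higher and 10.8% at least 2-fold lower. With 1 culture per group, these ratios have no replicate check and no p-value.

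RUNX1 stood at 44.6 CPM in the Orange and 24.3 CPM in the Green libraries of the benzene run, a log2 ratio of 0.87 (interval 0.77 to 0.98). Orange library 43 alone held 59.9% of the Orange reads, and without it the log2 ratio was -0.40, while without Green library 32 it was 1.18. In the imatinib run RUNX1 stood at 21.8 and 20.3 CPM, a log2 ratio of 0.10 (interval -0.01 to 0.21) that became -0.09 without Orange library 42. The direction in the benzene run was thus set by 1 library. The ITGA2B log2 ratio was 0.01 in the benzene run (interval -0.21 to 0.22) and 0.09 in the imatinib run (interval -0.36 to 0.53). Leaving out 1 library moved it between -2.96 and 1.77 in the benzene run, the extremes being without Orange library 12 and without Green library 47. The imatinib value moved between -1.91, without Orange library 21, and 1.03, without Green library 77.

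For genes with fewer than 100 reads, the counts themselves are given. SPI1 had 80 Orange and 13 Green reads in the benzene run, of which Orange library 6 held 76, and a log2 ratio of 2.50 (interval 1.64 to 3.47) that became -1.78 without that library. The imatinib run had 22 Orange reads and 1 Green read of SPI1, a log2 ratio of 4.61 (interval 1.98 to 9.98). KIT had 74 Orange and 5 Green reads in the imatinib run, a log2 ratio of 4.04 (interval 2.75 to 5.71) and of 3.03 without Orange library 48. The benzene run held 1 Orange and 6 Green reads of KIT, a log2 ratio of -2.71 (interval -8.23 to 0.34).

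Both runs share only the dyes, so Orange was also tested against Green on 4 sums of reads with the run as a term. By edgeR's quasi-likelihood test 0 of 17684 genes (0%) passed an adjusted p of 0.05 and 439 had a raw p below 0.05, whereas 206 of 15921 genes passed by DESeq2. Of the 10 genes, ITGA2B, RUNX1 and SPI1 had enough reads to be tested. Their log2 differences were 0.03, 0.47 and 3.30, with an adjusted p of 1 in edgeR for each. Each Orange sum carries another drug and 1 residual degree of freedom remained, so a change with 1 drug alone could not be tested.

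**Figure D4:**
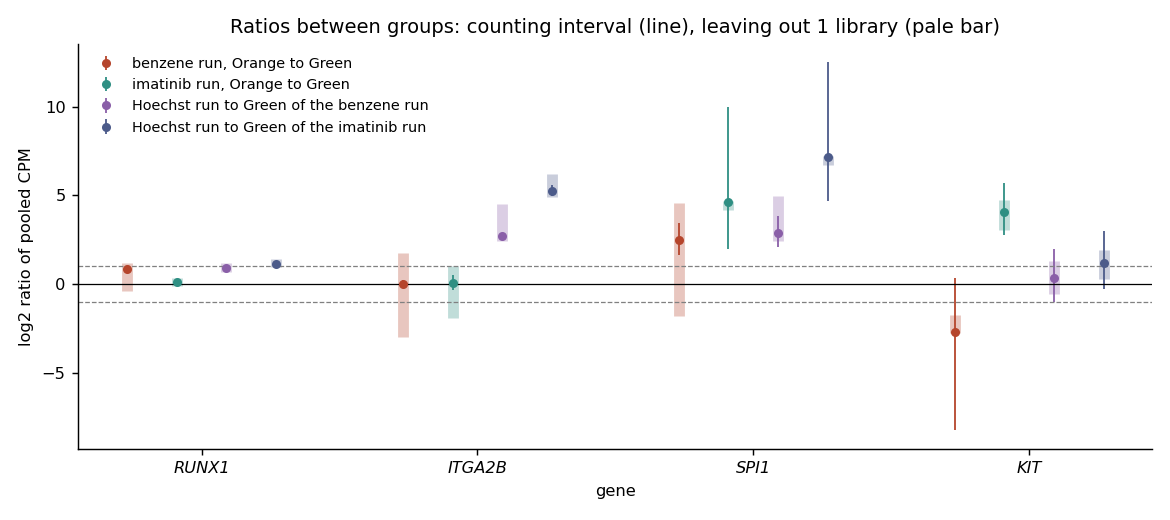
Log2 ratio of pooled CPM (y axis) of RUNX1, ITGA2B, SPI1 and KIT in 4 comparisons, with counting intervals as lines, the range on leaving out 1 library as pale bars and dashed lines at 2-fold. The ITGA2B ratios between stains lie at 0.01 and 0.09 with pale bars on both sides of 0, and its Hoechst to Green ratios lie at 2.73 and 5.24.

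Against untreated Green libraries, the pooled level of ITGA2B and of SPI1 was over 2-fold higher in the Hoechst run, with either CellTracker run as the reference. With equal weight for each library the differences in mean log2(CPM + 1) were 1.69 and 1.92 for ITGA2B but 0.49 and 0.65 for SPI1, which is below 2-fold. The pooled ITGA2B level was 54.1 CPM in the Hoechst run against 8.14 CPM in the Green libraries of the benzene run, a log2 ratio of 2.73 (interval 2.58 to 2.89), and 1.43 CPM in those of the imatinib run, a log2 ratio of 5.24 (interval 4.94 to 5.56). Without Green library 47 of the benzene run the first ratio was 4.49, and without Green library 77 of the imatinib run the second was 6.19. The 2 comparisons share the Hoechst libraries and are not independent.

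RUNX1 was 1.85-fold higher in the Hoechst run than in the benzene run's Green libraries and 2.22-fold higher than in the imatinib run's. Without Green library 32 of the benzene run the first log2 ratio rose from 0.89 to 1.20, and without Hoechst library 47 the second fell from 1.15 to 0.96, which moves each across 2-fold. SPI1, at 2.30 CPM in the Hoechst run, was 7.47-fold higher than in the benzene run's Green libraries (0.307 CPM, 13 reads, log2 interval 2.10 to 3.83). Without Green library 66 of the benzene run, which held 10 of those reads, the SPI1 log2 ratio rose from 2.90 to 4.97. The Green libraries of the imatinib run had 1 read of SPI1 against 239 in the Hoechst run, a log2 ratio of 7.18 (interval 4.69 to 12.49). Of the 3 genes with enough reads, 2 were at least 2-fold higher than in the benzene run's Green libraries and 3 than in the imatinib run's. Over all genes, 38.3% were at least 2-fold higher and 15.3% lower in the first comparison, and 31.5% higher and 15.9% lower in the second. KIT, with 19 reads in the Hoechst run, had log2 ratios of 0.36 (interval -1.02 to 1.98) and 1.20 (interval -0.27 to 2.98).

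The wider lists of each lineage place these genes among their partners. These lists, too, were chosen with earlier results of these data known. Of 25 megakaryocyte genes, 4 were detected in at least 50% of the Hoechst libraries, namely F2R, GFI1B, NFE2 and NBEAL2, and 2 in each of the other runs, GFI1B and NFE2. These are 16%, 8.0% and 8.0% of the list, beside 11.3%, 8.46% and 11.9% of all rows of the table, non-coding genes included. NFE2, a factor that megakaryocytes and erythroid cells both use, was the highest of the list per length, at 149, 163 and 158 CPM per kilobase in the Hoechst, benzene and imatinib runs. GFI1B, a repressor shared by the same lineages, stood at 12.7, 22.6 and 32.8, and F2R, the thrombin receptor PAR1, at 13.8, 2.22 and 3.77. GP6, the platelet collagen receptor, stood at 4.62, 8.97 and 3.23 and was detected in 45.1%, 27.7% and 27.4% of libraries. In this list 7, 8 and 9 genes had no read in the respective runs.

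Of 28 myeloid genes, 4 were detected in at least 50% of the Hoechst libraries (LYZ, CEBPB, CD33 and FCGR2A) and 3 in each other run (LYZ, CD33 and FCGR2A). These are 14.3%, 10.7% and 10.7% of the list, set beside the same shares of all rows. FCGR2A, an Fc receptor of myeloid cells and platelets, was the highest per length at 78.2, 40.6 and 9.99 CPM per kilobase, and was detected in 98.8%, 84.6% and 62.1% of libraries. LYZ, lysozyme, stood at 12.8, 11.8 and 21.6, CD33, a sialic acid receptor of early myeloid cells, at 10.4, 12.5 and 9.85, and TYROBP, an adaptor of myeloid receptors, at 4.31, 3.02 and 2.77. TYROBP was detected in only 18.3%, 4.62% and 4.21% of libraries. The neutrophil granule genes MPO, ELANE and CTSG, singled out after their values were seen, were detected in 0 libraries of each run, and AZU1 in 3, 1 and 1. PRTN3, another granule gene of the list, stood at 0.156, 0.0409 and 0 CPM per kilobase in the Hoechst, benzene and imatinib runs. Thinned to 500000 reads, PRTN3 was detected in 1 of 80 Hoechst libraries.

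Of 20 progenitor genes, 8, 7 and 8 reached a detection share of 50% in the Hoechst, benzene and imatinib runs. These are 40%, 35% and 40% of the list, beside 11.3%, 8.46% and 11.9% of all rows, non-coding genes included. Without a share over coding genes alone, an excess of this list cannot be read from these values. The list was split, since 11 of its genes were detected in less than 20% of libraries in each run. In the respective runs 4, 7 and 6 had no read. GATA2, a factor of stem cells and early megakaryocyte and erythroid progenitors, led per length at 45.3, 26.6 and 21.7 CPM per kilobase. TAL1 stood at 22.1, 20.0 and 26.8 and MYB at 22.8, 27.6 and 10.8. CBFB, the partner subunit of RUNX1, stood at 10.5, 4.79 and 5.47 and was detected in 89%, 76.9% and 88.4% of libraries. In the erythroid list HBG2 stood at 2125, 3475 and 2969 CPM per kilobase, followed by HBE1, HBG1 and UROD, of which the globin genes share sequence or exons with neighbours and are uncertain. The median gene of the 10 was detected in 0.610%, 0% and 0% of libraries, and the median erythroid gene in 96.3%, 91.5% and 97.9%.

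Lymphoid genes, which this line should lack, were set beside these shares. Of 10, 1 was detected in at least 50% of the Hoechst libraries and 0 in the other runs. That gene was CD3D, a T cell receptor chain gene, detected in 82.9%, 41.5% and 27.4% of libraries at 38.1, 12.2 and 2.72 CPM per kilobase. CD22, a B cell surface gene, was detected in 3.66%, 4.62% and 6.32% and CD2, a T cell surface gene, in 0%, 0% and 1.05%. The SPI1 and KIT shares lie within the range of these genes, but CD3D sets the upper end of that range. CD3D was above RUNX1 per kilobase in every run, so it is not a background level. The RUNX1 share was higher than that of CD3D in every run. In the Hoechst run, however, the CD3D share lay inside the RUNX1 interval of 77.3 to 93.1. Thinned to 500000 reads, the Hoechst shares were 82.5% for RUNX1 and 80% for CD3D. The ITGA2B share of 40.2% in the Hoechst run was below that of CD3D and above that of the other 9. The summed level of the 10 lymphoid genes per library had medians of 109, 3.96 and 0 CPM in the Hoechst, benzene and imatinib runs and highest values of 586, 611 and 154 CPM. Its part in the ITGA2B difference between runs was not tested.

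**Figure D5:**
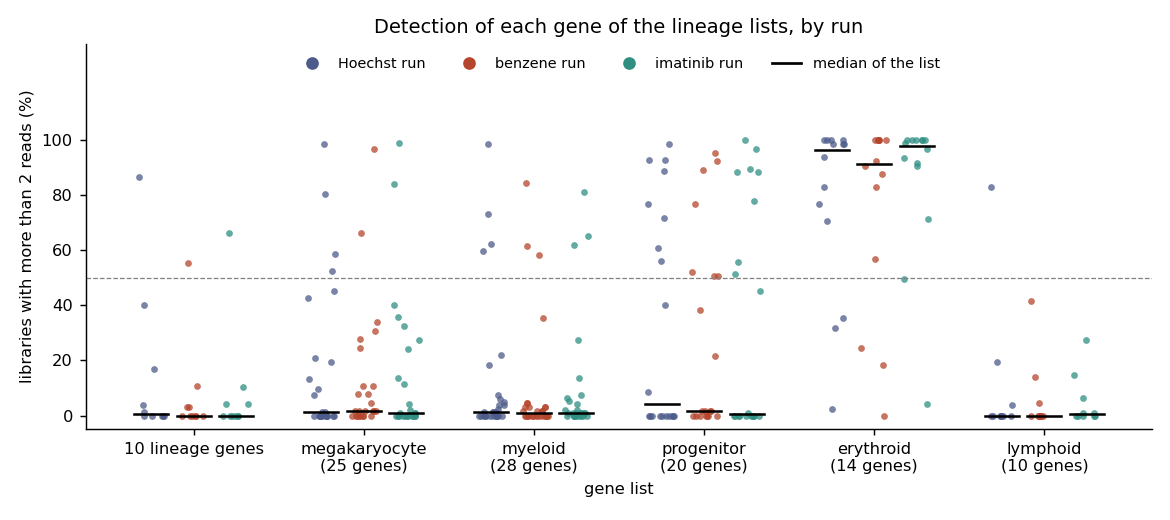
Percentage of kept libraries with more than 2 reads (y axis) for each gene of the 10 lineage genes and of 5 lists (x axis), by run, with the list's median as a line and a dashed line at 50%. Most erythroid genes lie above 50% and most megakaryocyte, myeloid and lymphoid genes near 0, with RUNX1 as the single point of the 10 above the line in each run.

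Of the genes of the 5 lists with at least 100 reads, 15 of 45 in the benzene run and 15 of 44 in the imatinib run differed at least 2-fold between Orange and Green. In the benzene run 15.6% were higher and 17.8% lower, against 21% and 18.4% of all genes. In the imatinib run 18.2% were higher and 15.9% lower, against 10.4% and 10.8% of all genes. In the megakaryocyte list of the benzene run RAB27B was higher and GP5, GP6 and MKL1 were lower in Orange, a median log2 ratio of -0.67 over 9 genes against 0.05 over all genes. In the imatinib run GP1BA, PLEK and ZFPM1 were higher and GP6, NBEAL2 and TUBB1 lower, a median of -0.39 over 10 genes against -0.02. GP6 was lower in Orange in both runs, at 3.06 against 47.3 CPM in the benzene run, a log2 ratio of -3.95 (interval -4.21 to -3.70), and at 2.36 against 14.4 CPM in the imatinib run, a log2 ratio of -2.61 (interval -2.88 to -2.35). Leaving out 1 library left these between -4.33 and -3.26 and between -3.08 and -2.03. Across both runs the edgeR log2 difference of GP6 was -3.29 with an adjusted p of 1 (unadjusted 0.00921), while DESeq2 gave an adjusted p of 6.92e-05. GP6 was detected in 9 of 34 Orange and 9 of 31 Green libraries of the benzene run and in 10 of 45 and 16 of 50 of the imatinib run.

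In the myeloid list CD33, CSF3R and TYROBP were higher and CSF1R, ITGAM and S100A9 lower in Orange of the benzene run, a median log2 ratio of -0.16 over 9 genes. In the imatinib run CSF3R and TYROBP were higher and CEBPB and CSF1R lower, a median of 0.06 over 8 genes. CD33 was detected in 23 of 34 Orange and 17 of 31 Green libraries of the benzene run, at 110 against 35.9 CPM, a log2 ratio of 1.61 (interval 1.53 to 1.70) that stayed between 1.28 and 2.13 on leaving out 1 library. TYROBP was higher in Orange in both runs, with 240 against 2 reads and 296 against 5 reads, but 97.1% and 95.6% of the Orange reads came from 1 library each. Its DESeq2 adjusted p was 0.000547 and its edgeR adjusted p was 1. CEBPB, a factor of monocytes and granulocytes, was detected in 2 of 45 Orange and 11 of 50 Green libraries of the imatinib run, a log2 ratio of -2.07 (interval -2.70 to -1.48).

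In the progenitor list ITGA6 and MECOM were higher and CD38 lower in Orange of the benzene run, and HLF was higher and MECOM lower in the imatinib run. The list medians were 0.18 over 11 genes and -0.33 over 10. In the erythroid list EPOR was higher and ALAS2 lower in the benzene run, with a median of 0.02 over 13 genes, and SLC4A1 was higher and EPOR lower in the imatinib run, with a median of -0.15 over 14. Many of these ratios rest on single libraries. Without the library that moved it most towards 0, the ratio stayed at 2-fold in 5 of 15 genes of the benzene run (GP6, MKL1, CD33, TYROBP and ALAS2) and in 6 of 15 of the imatinib run (GP6, TUBB1, NBEAL2, CEBPB, TYROBP and SLC4A1). For TYROBP, 97.1% and 95.6% of the Orange reads lay in the library left out. Its remaining log2 ratios of 1.14 and 1.56 in the benzene and imatinib runs thus rest on few reads. The GP5, CSF1R, CSF3R and ITGA6 reads of the benzene run and the PLEK and HLF reads of the imatinib run came from 1 library in the higher group.

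Detection of one gene was also compared between libraries with and without another. Among Hoechst libraries, 31 of 33 libraries with ITGA2B and 40 of 49 without it had RUNX1 (93.9% and 81.6%), and 6 of 33 and 8 of 49 had SPI1 (18.2% and 16.3%). Of the megakaryocyte list, RAB27B, a granule transport gene, was detected in 12 of 33 libraries with ITGA2B and in 5 of 49 without (36.4% and 10.2%), and GP6 in 19 of 33 and 18 of 49 (57.6% and 36.7%). The libraries with ITGA2B include all 5 Hoechst libraries set apart above for their high number of detected genes. RUNX1 was also detected in all 5. These may be bulk samples, in which detection of both genes need not come from the same cell. Shares without them are not given. Nor are shares for the other genes of the megakaryocyte list, so RAB27B and GP6 cannot stand for that list. The shares come from 1 culture and were not tested. Within groups, RUNX1 levels correlated most with SPC25, a kinetochore gene, and ACVR2B, an activin receptor gene, with mean Spearman rho values of 0.30 and 0.29 over the 5 groups among 5097 genes, each over 31 to 82 libraries. These values are weak and are given as a description.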

How the data were processed

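Libraries from C1 single-cell runs of K562 cells, bulk samples possibly among them, were described from the counts of reads per gene that the authors deposited and from a CPM table they deposited beside it. The submitters' processing notes name bcl2fastq, HISAT2, Picard 1.92 and featureCounts from Subread 1.5.0, and the authors aligned to GRCh37 and counted uniquely mapped reads on Ensembl genes. The CPM table matched the deposited counts, ERCC spike-ins included, within a relative difference of 4.97e-07, and was used here only for 1 detection threshold. CPM values here exclude the 92 ERCC rows. Depth is given in the report.

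The groups came from the library titles and labels. Another 4 titles of the benzene run lacked a column of counts, and 4 columns without a title stayed unused. The 21 libraries in which the top 500 genes took over 70% of reads were set aside. The genes and lists were chosen with earlier results of these data known. Symbols were matched through GENCODE v44lift37, and 107 of 107 list genes matched, MKL1 through its present symbol MRTFA. Named genes were the 10 genes, the 4 highest of each list per kilobase, list genes with at least 100 reads past 2-fold between stains, and the 2 genes whose levels were most like RUNX1. The values of 1 list gene are not reported here, though counts over its list include it.

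Ratios of pooled CPM carry exact conditional binomial intervals, and shares exact binomial ones (scipy 1.17.1, Python 3.11.15). A group with under 3 reads was set to 3 reads when all genes were counted past 2-fold. Orange and Green sums were tested with edgeR 4.0.16 (quasi-likelihood, TMM, filterByExpr, Benjamini-Hochberg) and DESeq2 1.42.0 in R 4.3.3. The edgeR step was also run on simulated sums with 200 genes changed 8-fold. At the dispersion estimated for each gene it recovered 122 of the 200, with 21 false calls. At a dispersion of 0.02 it recovered 200, with 7 false calls. A lack of edgeR calls therefore does not exclude changes of that size. Alternatives covered detection thresholds, library limits, thinning, totals, weighting, scaling, filters and single libraries, the last and the limit of 10000 genes being added after seeing the data.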

Additional observations from a re-analysis of the deposited data

Results flagged for a closer look

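The 21 libraries left out for low complexity also held reads of these genes, although no comparison used them. RUNX1 had 223 reads there and was detected in 8 of them, at up to 132 CPM. ITGA2B had 81 reads and was detected in 2, and SPI1 had 12 reads and was detected in 3, above the 3 reads that a count of 0 allows. GP9, PF4, CEBPA and CD34 had no read in these libraries either.

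MECOM, a factor of stem cells and megakaryocyte progenitors, moved in opposite directions with the Orange label, with a log2 ratio of 1.09 in the benzene run and -1.09 in the imatinib run. It was detected in 18 of 34 Orange and 16 of 31 Green libraries of the first and in 34 of 45 and 40 of 50 of the second, and without 1 library each the ratios came to 0.78 and -0.89. EPOR, the erythropoietin receptor gene, gave log2 ratios of 1.15 and -1.34, which became 0.10 and -0.89 without 1 library (Orange library 51 in the benzene run and Green library 59 in the imatinib run). The differences between runs were not tested, since each stain of a run is 1 culture.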

How the results depend on the processing

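RUNX1 remained the single gene of the 10 in at least 50% of libraries under most settings. At a threshold of 1 read, 2 of the 10 reached that share in the Hoechst run. At 10 reads the count was 0 in the benzene and imatinib runs, and it was also 0 in the benzene run thinned to 500000 reads. The numbers of genes at least 2-fold higher in the Hoechst run, 2 against the benzene Green and 3 against the imatinib Green libraries, both became 0 with equal weight for libraries and a pseudocount of 10. DESeq2 called 206 genes in the stain comparison, where edgeR called 0 under each of its 6 settings, and DESeq2 left out genes with no adjusted p. The ITGA2B stain difference was -0.027 without the run term. The causes of these changes were not tested. Of 128 alternative detection shares, 18 fell outside their counting interval, and of 80 alternative log2 ratios 33 did, most of them with equal weights or without 1 library. Outside these, the SPI1 ratio between stains of the benzene run, 2.50, became -1.78 without 1 library, that of CSF1R in the benzene run went from -4.73 to 0.82 and that of CSF3R in the imatinib run from 2.23 to -1.15. No paired analysis was possible because the capture site numbers in the titles only name libraries and do not tie a library of one group to one of another. Depth limits the genes without reads to the levels given with them.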
